A study of Mus musculus with 18 samples.

Results

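The mitochondrial ribosomal protein genes were taken as the protein-coding genes of the RefSeq annotation of mm10 (GRCm38.p6) whose symbol starts with Mrpl or Mrps followed by a number. This gave 78 of 21887 protein-coding genes on the nuclear chromosomes, 49 of the large subunit (Mrpl) and 29 of the small subunit (Mrps), spread over 17 chromosomes. Binding of MYC was profiled by ChIP-seq, the sequencing of DNA pulled down with an antibody to MYC, in liver tumours from mice of the FVB strain, with 3 MYC libraries and 3 input libraries for each of 3 Arid1a genotypes. Homo tumours came from LAP-tta, Arid1a fl/fl, Alb-cre, TRE-MYC mice aged about 100 days. Het tumours came from LAP-tta, Arid1a fl/+, Alb-cre, TRE-MYC mice aged about 70 days. WT tumours came from LAP-tta, Arid1aflfl, TRE-MYC mice without Alb-cre aged about 55 days. All mice thus carried the liver-driven, doxycycline-controlled MYC transgene, switched on when doxycycline was taken away, and the WT mice carried floxed Arid1a alleles too. The protein made from Arid1a is part of the SWI/SNF complex, which moves nucleosomes, and the design asks whether MYC occupancy differs with its dose. Age changed together with genotype in every comparison, and Cre did in those with WT, so their effects cannot be told apart from that of genotype there. Het and Homo mice both carried Alb-cre. Cre under the albumin promoter acts in hepatocytes and their relatives, so other cells of a tumour keep Arid1a. The peak lists hold no expression values and do not show the deletion, so neither the tissue label nor the genotypes could be checked from them.

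The mitochondrial ribosome translates the few messenger RNAs of the mitochondrial genome, which encode core subunits of the respiratory chain and the ATP synthase. All of its proteins are encoded in the nucleus, made in the cytosol and imported. MYC, which binds DNA as a dimer with MAX and prefers the E-box CACGTG, is known for occupying genes of ribosome production and mitochondrial biogenesis.

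A gene was called bound in a library when the summit of a peak lay within 1 kb of either end of its span. Peaks were called per library by the authors, and the lists held from 51 to 4291 peaks. The fold over background, the −log10 p and the rank of a peak are the authors' values of that list. The fold and p of a peak together gave the number of MYC reads at its summit and the local background in input reads. MYC reads are given unscaled unless stated otherwise. For the fold they were scaled to the input, by a factor of 0.272 to 0.508 that differed between libraries. The lowest −log10 p that a list held ranged from 5.27 in WT replicate 3 to 9.08 in Homo replicate 2, so a weak peak could enter some lists and not others. Input depth ranged from 3.37 to 6.27 reads per kb. Every Homo input (3.37 to 3.69) was shallower than every WT input (4.04 to 6.27). Whether the libraries of a genotype stem from different animals is not stated in the labels. The p-values therefore cover the spread between these libraries, which may be technical.

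MYC peaks were found at 27 of the 78 genes in at least 1 library and at 12 in at least 2. The 12 were Mrpl23, Mrpl36, Mrpl54, Mrpl15, Mrpl12, Mrpl43, Mrpl17, Mrpl50, Mrpl47, Mrpl45, Mrps28 and Mrps18a. They make up 15.4% of the group, against 8.03% of all protein-coding genes, and the 27 make up 34.6%, against 14.9%. WT replicate 3 supplied much of these counts. In at least 4 libraries 4 genes were bound (5.13%, against 3.03% of all protein-coding genes). Without WT replicate 3, 14 genes had a peak in any library. In at least 2 there were 9 (11.5%), against 5.14% of all protein-coding genes. The number of bound genes was 1, 0 and 1 in the Homo libraries, in replicate order, where 0.324%, 0.0548% and 0.918% of all protein-coding genes were bound. It was 11, 8 and 1 in the Het libraries, where 5.58%, 6.14% and 0.854% of all genes were bound. In the WT libraries it was 0, 8 and 23, where 0.0731%, 4.86% and 14.1% of all genes were bound. As shares of the group these counts are 1.28%, 0% and 1.28% in Homo, 14.1%, 10.3% and 1.28% in Het, and 0%, 10.3% and 29.5% in WT. In each of the 7 libraries with a bound member the share was above that of all protein-coding genes in the same library. For Homo replicates 1 and 3 and Het replicate 3 this was fixed in advance. The only bound member there was Mrpl23, and 1 of 78 genes is already 1.28%. In Homo replicate 2 and WT replicate 1 the share of the group, 0%, was below that of all protein-coding genes. Any peak in Homo was found at 1 gene of the group, in Het at 13 and in WT at 24, where 1.03% of all protein-coding genes had one in Homo, 7.85% in Het and 14.3% in WT. The shares of the 3 genotypes overlap, because Het replicate 3 and WT replicate 1 lie at the level of the Homo libraries.

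**Figure D1:**
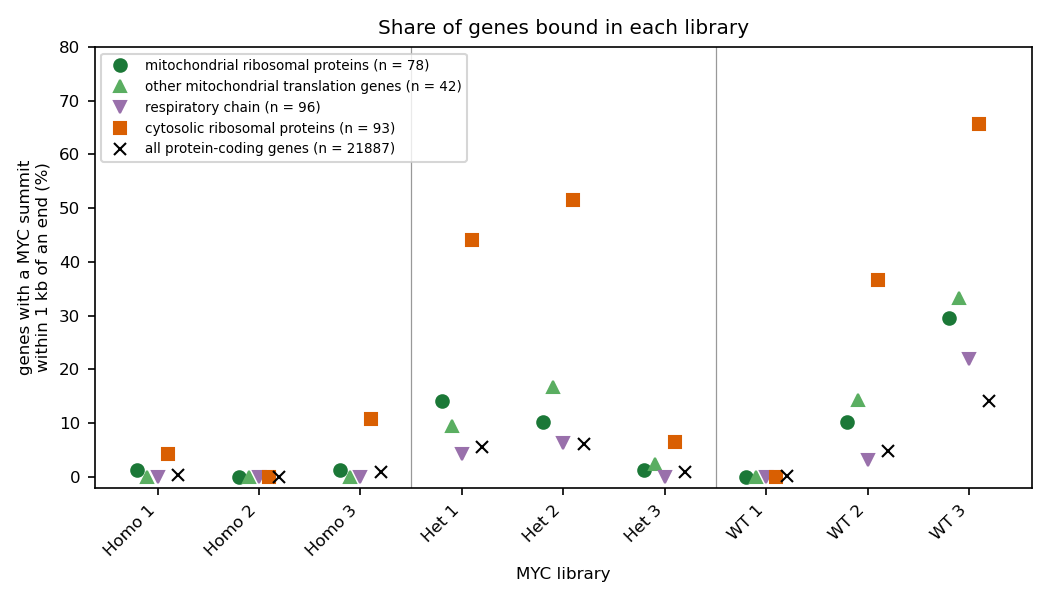
Share of genes (%, vertical axis) with a MYC summit within 1 kb of an end in each of the 9 MYC libraries (horizontal axis), for 5 sets of genes given in the legend. The mitochondrial ribosomal protein genes reached 29.5% in WT replicate 3 and at most 1.28% in the Homo libraries, and lay below the cytosolic ribosomal protein genes wherever any of those was bound.

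Large and small subunit genes were bound in at least 1 library at the same share, 17 of 49 (34.7%) and 10 of 29 (34.5%). They parted in recurrence. In at least 2 libraries 10 of 49 large subunit genes (20.4%) and 2 of 29 small subunit genes (6.90%) were bound, against 8.03% of all protein-coding genes. Of the 10 bound small subunit genes, 8 had their only peak in WT replicate 3, and without that library 12 large and 2 small subunit genes had any peak. The small subunit count of 2 became 1 when Het replicate 1 or WT replicate 3 was left out and 0 when Het replicate 2 was, and the difference between subunits was not tested. Symbols do not follow structure in every case. Mrps18a and Mrps30 are named for the small subunit but sit in the large subunit in the solved structures of mammalian mitochondrial ribosomes. All counts and figures by subunit follow the symbol, so Mrps18a is 1 of the 2 small subunit genes bound in at least 2 libraries.

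**Figure D2:**
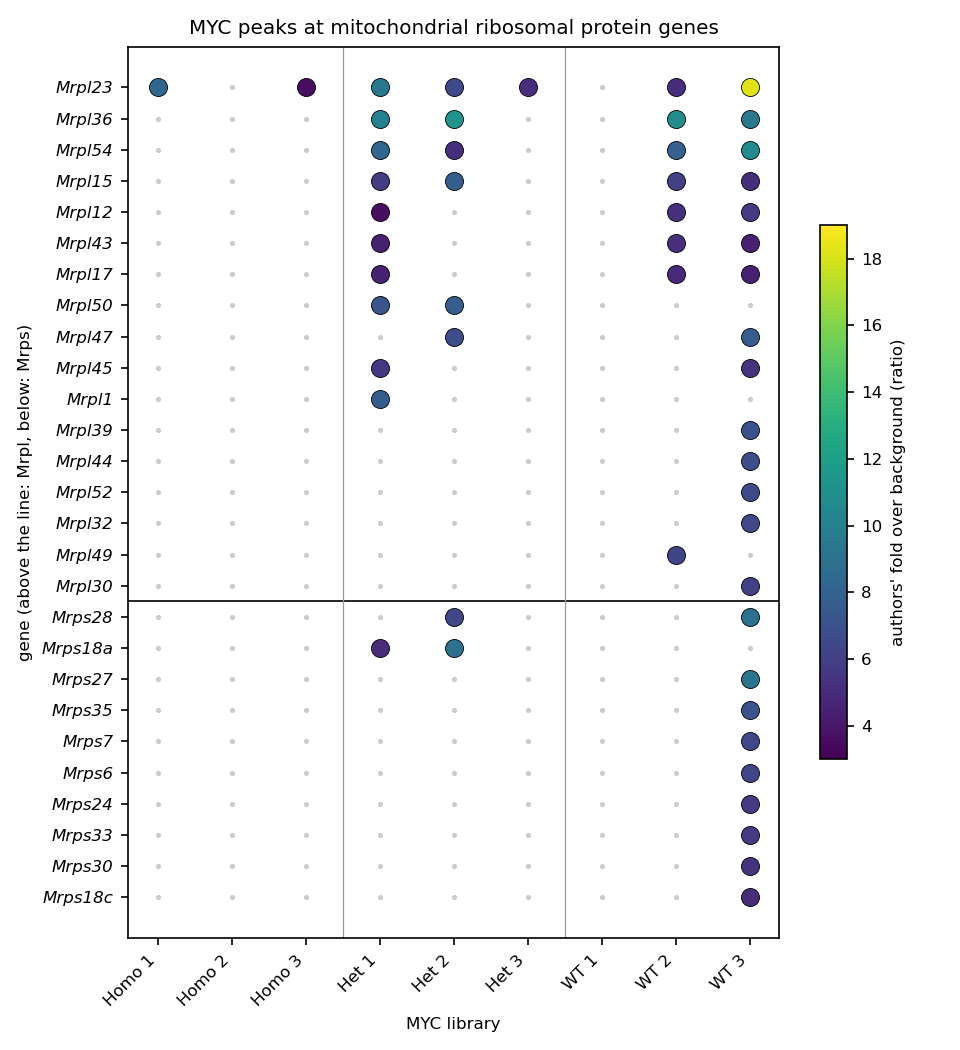
MYC peaks at the 27 bound genes (rows, large subunit above the line and small subunit below it) in the 9 MYC libraries (columns). A coloured circle marks a peak and its colour the authors' fold over background, from 3.54 to 18.2, and a grey dot marks no peak; 8 of the 10 small subunit genes have a circle in WT replicate 3 only.

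Mrpl23 was the gene of the group with peaks in the most libraries, and the only 1 of the 78 bound in Homo. It encodes a large subunit protein whose bacterial counterpart lies at the exit of the peptide tunnel (chromosome 7, span 142532467 to 142540747). Its peaks had folds of 8.27 in Homo replicate 1 and 3.54 in Homo replicate 3. In Het they were 9.40, 6.62 and 5.01 in replicate order, and in WT 5.09 in replicate 2 and 18.2 in replicate 3. At the summit lay 56 and 85 MYC reads in these Homo libraries, 128, 69 and 52 in Het, and 87 and 86 in WT replicates 2 and 3. The genotypes overlap in fold and in these unscaled reads. Folds and unscaled reads do not run in parallel, because both the local background and the scale of a library differ. Scaled to the input of each library, at unequal input depth, the reads were 23.8 and 23.8 in Homo. They were 36.6, 32.1 and 24.1 in Het, and 39.7 and 43.7 in WT. WT replicates 2 and 3 had nearly the same unscaled reads, but a background of 7 in replicate 2 and 1.46 in replicate 3. The peak ranked high in some lists (2.14% from the top in WT replicate 3, 6.60% in Het replicate 1, 22.3% in Homo replicate 1) and low in others (59.5% in Het replicate 3, 95.4% in Homo replicate 3). All 7 summits fell within 125 bp of each other, 282 to 407 bp downstream of the transcription start, and no other gene end lay within 1 kb.

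Mrpl23 also shows what the 1 kb limit leaves out. Its 7 summits lay 847 to 972 bp from the start of the span, which begins upstream of the transcription start used above. In Homo replicate 2 the summit lay 1014 bp from that end, 14 bp too far to count. That peak had a fold of 8.42, with 45 MYC reads over a background of 1.21, and 449 bp separated its summit from the transcription start. Counted by transcription start, Mrpl23 was bound in 8 of 9 libraries, 3 of 3 in Homo, 3 of 3 in Het and 2 of 3 in WT. No peak of WT replicate 1 lay there. Just outside the limit lay also Mrpl38, which counts as not bound in any library although 7 of the lists held a peak 1162 to 1246 bp beyond its end. There the fold was 4.42 in Homo replicate 3, 6.89, 16.4 and 5.33 in Het, and 6.37, 8.47 and 11.3 in WT, and the nearest other gene end was that of Trim65, a ubiquitin ligase gene, at 758 to 842 bp. Mrpl18 (2 libraries, 1363 and 1384 bp, with the chaperonin gene Tcp1 within 95 bp) and Mrpl40 (1 library, 1068 bp) complete the peaks found up to 1500 bp away.

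**Figure D3:**
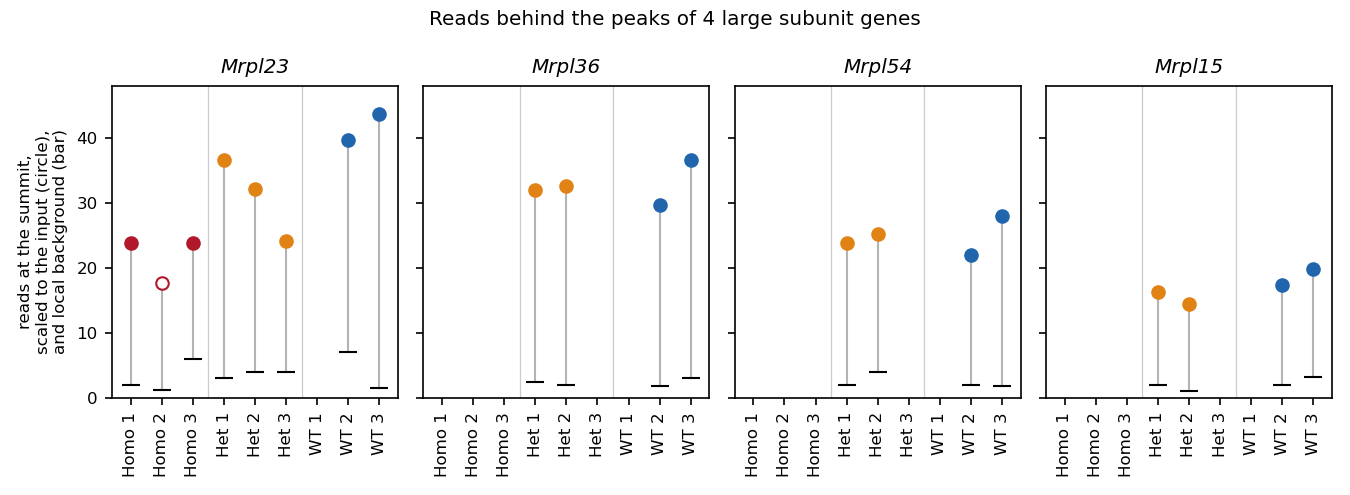
MYC reads at the summit after scaling to the input (circles) and local background in input reads (bars) for Mrpl23, Mrpl36, Mrpl54 and Mrpl15 in the 9 MYC libraries; red is Homo, orange Het and blue WT. No symbol means no peak, and the open circle is the Mrpl23 peak of Homo replicate 2 at 1014 bp. For Mrpl36 and Mrpl15 the Het and WT circles stand at 29.7 to 36.6 and 14.4 to 19.8 reads. Each library is scaled to its own input, and input depth differed, so circles of equal height do not mean equal signal.

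Mrpl36, Mrpl54 and Mrpl15 were each bound in 2 of 3 Het and 2 of 3 WT libraries and in no Homo library, always in Het replicates 1 and 2 and WT replicates 2 and 3. Mrpl36 encodes the counterpart of a small bacterial large subunit protein (chromosome 13, span 73328503 to 73332178). Its folds were 9.89 and 11.2 in Het and 10.8 and 9.39 in WT. After scaling to the input its summits held 32.0 and 32.6 reads in Het and 29.7 and 36.6 in WT. These scaled reads are not at equal depth. The inputs had 4.34 and 3.63 reads per kb in these Het libraries and 6.27 and 5.62 in these WT libraries. Mrpl36 ranked 128 of 1713 and 146 of 1869 in Het and 188 of 1567 and 475 of 4291 in WT, and its summits spanned 38 bp. They lay 202 to 240 bp downstream of a transcription start inside the annotated span, and 929 to 967 bp from the span's end. Mrpl54, a large subunit protein found in mitochondrial but not in bacterial ribosomes (chromosome 10, span 81264722 to 81266926), had folds of 8.24 and 5.22 in Het and 7.90 and 10.7 in WT. Its summits lay 59 to 108 bp inside its span and 68 to 117 bp from the nearest end of Apba3, an adaptor protein gene. Mrpl15, of the bacterial L15 family (chromosome 1, span 4773198 to 4785750), had folds of 5.86 and 7.71 in Het and 6.12 and 5.07 in WT and ranked between 58.2% and 77.7% of its lists. For Mrpl36 and Mrpl15 the fold ranges of Het and WT overlap, and those of Mrpl54 do too.

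A −log10 p of at least 10, without any change to the reads, was met in 2 or more libraries by 8 of the 12 genes (7 large and 1 small subunit). These are 10.3% of the group, against 6.15% of all protein-coding genes. With the reads and background of each peak also scaled down by calculation to the shallowest input, 4 genes met this limit in 2 or more libraries, where 3.83% of all protein-coding genes did. They were Mrpl23, Mrpl36, Mrpl54 and Mrps28. Mrpl36 passed in each of its 4 libraries, with thinned −log10 p values of 19.5 and 26.4 in Het and 13.8 and 16.2 in WT. Mrpl54 passed in 3 of 4 (14.1 and 11.7 in Het, 14.8 in WT replicate 3) and had 8.97 in WT replicate 2. Mrpl15 passed in 1, Het replicate 2, at 11.8. The 4 libraries with a Mrpl36 peak had the longest lists, of 1567 to 4291 peaks, where the others held at most 378. With every list cut to the length of the shortest, Mrpl36 was bound in 0 libraries. Thinning scales to input depth only, and why Mrpl36 had no peak in the Homo lists was not tested. The number of genes past the limit after thinning was 1, 0 and 0 in the Homo libraries, 3, 7 and 1 in Het and 0, 1 and 6 in WT. Before thinning the limit left 1, 0 and 0 in Homo, 6, 8 and 1 in Het and 0, 6 and 18 in WT. Counts of all genes per library under this limit are not given here. Mrpl23 in Homo replicate 3 was under the limit both before thinning (7.61) and after it (7.85). The rise comes from rounding, since scaled reads were rounded down to a whole number and background was not.

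Mrpl12, Mrpl43 and Mrpl17 were bound in 3 libraries each, Het replicate 1 and WT replicates 2 and 3, all with low folds. Mrpl12 encodes the stalk protein of the large subunit, which in human cells has also been described as a partner of the mitochondrial RNA polymerase (chromosome 11, span 120484637 to 120488754). Its folds were 3.62 in Het and 5.22 and 5.79 in WT, with 85 MYC reads over a background of 6 in Het and 55 reads over 4 in each WT library. Its summits lay 41 to 90 bp downstream of the start. Mrpl43, a large subunit protein without a bacterial counterpart (chromosome 19, span 45005014 to 45006442), had folds of 4.40 in Het and 5.16 and 4.50 in WT. Its summits lay 82 to 109 bp upstream of its start and 7 to 34 bp upstream of a start of Twnk, the gene of the mitochondrial DNA helicase, on the other strand. Mrpl17, of the bacterial L17 family (chromosome 7, span 105803782 to 105811087), had folds of 4.47 in Het and 4.77 and 4.40 in WT. In Het replicate 1 the peaks of these 3 genes ranked between 89.2% and 91.8% of the list. In Het their −log10 p was 8.23 for Mrpl12 and 7.66 for the other two, under 10 without thinning. In WT it was 12.6 and 14.3 for Mrpl12, 9.12 and 12.3 for Mrpl43, and 7.83 and 10.5 for Mrpl17. After thinning all 9 values lay between 4.85 and 9.07.

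Bound in 2 libraries were Mrpl50, Mrps18a, Mrps28, Mrpl47 and Mrpl45. Mrpl50 and Mrps18a had their peaks in Het replicates 1 and 2. Mrpl50, another large subunit protein specific to mitochondria (chromosome 4, span 49512597 to 49521083), had folds of 7.18 and 7.64 there, with summits 449 and 457 bp inside the gene and 542 and 550 bp from Zfp189. Mrps18a, of the bacterial S18 family (chromosome 17, span 46111004 to 46128908), had folds of 4.96 and 9.05. The other 3 had a peak in 1 Het library and WT replicate 3. Mrps28 (chromosome 3, span 8802146 to 8923857) had folds of 6.38 in Het replicate 2 and 8.95 in WT. Both summits lay nearer to an end of the noncoding gene Gm52601 (92 bp in Het and 46 bp in WT) than to the end of Mrps28 (193 bp in Het and 239 bp in WT). Mrpl47, of the bacterial L29 family (chromosome 3, span 32727497 to 32736755), had 6.73 in Het replicate 2 and 7.62 in WT. Mrpl45, which in human cells ties the ribosome to the inner membrane (chromosome 11, span 97314923 to 97329920), had 5.58 in Het replicate 1 and 5.33 in WT, with summits 6 bp apart.

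The other 15 bound genes had a peak in 1 library each, and 13 of them had it in WT replicate 3. In that library they were Mrpl30, Mrpl32, Mrpl39, Mrpl44, Mrpl52, Mrps6, Mrps7, Mrps18c, Mrps24, Mrps27, Mrps30, Mrps33 and Mrps35. Mrps27 had the highest fold among them (9.14, 52 MYC reads over a background of 2) and Mrps18c ranked lowest (fold 4.95, 21 reads, 96.7% of the list). The remaining pair was Mrpl1 in Het replicate 1 (fold 7.67) and Mrpl49 in WT replicate 2 (fold 6.31). No peak was called at 51 genes, 32 of the large and 19 of the small subunit. For the large subunit these were Mrpl2, Mrpl3, Mrpl4, Mrpl9, Mrpl10, Mrpl11, Mrpl13, Mrpl14, Mrpl16, Mrpl18, Mrpl19, Mrpl20, Mrpl21, Mrpl22, Mrpl24, Mrpl27, Mrpl28, Mrpl33, Mrpl34, Mrpl35, Mrpl37, Mrpl38, Mrpl40, Mrpl41, Mrpl42, Mrpl46, Mrpl48, Mrpl51, Mrpl53, Mrpl55, Mrpl57 and Mrpl58. For the small subunit they were Mrps2, Mrps5, Mrps9, Mrps10, Mrps11, Mrps12, Mrps14, Mrps15, Mrps16, Mrps17, Mrps18b, Mrps21, Mrps22, Mrps23, Mrps25, Mrps26, Mrps31, Mrps34 and Mrps36. No peak at the depth of these libraries does not show that MYC is absent there.

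Peaks at mitochondrial ribosomal protein genes were mostly weak ones of their lists. The 53 peaks had folds from 3.54 to 18.2 with a median of 6.38, and from 21 to 128 MYC reads at the summit with a median of 49. The median rank of the group's peaks was 70.3% of the list in Het replicate 1 and 57.7% in Het replicate 2, where all gene-end peaks had medians of 52.5% and 49.0%. It was 56.6% in WT replicate 2 and 58.3% in WT replicate 3, where gene-end peaks had 52.5% and 49.8%. Median folds lay close to those of all gene-end peaks, at 5.86 against 6.41 in Het replicate 1, 7.19 against 7.03 in Het replicate 2, 5.67 against 6.58 in WT replicate 2 and 6.47 against 6.72 in WT replicate 3. In the top 25% of the list stood 3 of 11 peaks in Het replicate 1, 2 of 8 in Het replicate 2, 1 of 8 in WT replicate 2 and 4 of 23 in WT replicate 3, all of them Mrpl23, Mrpl36, Mrpl54 or Mrps27. These values are descriptions within each list, and no test was run on them.

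**Figure D4:**
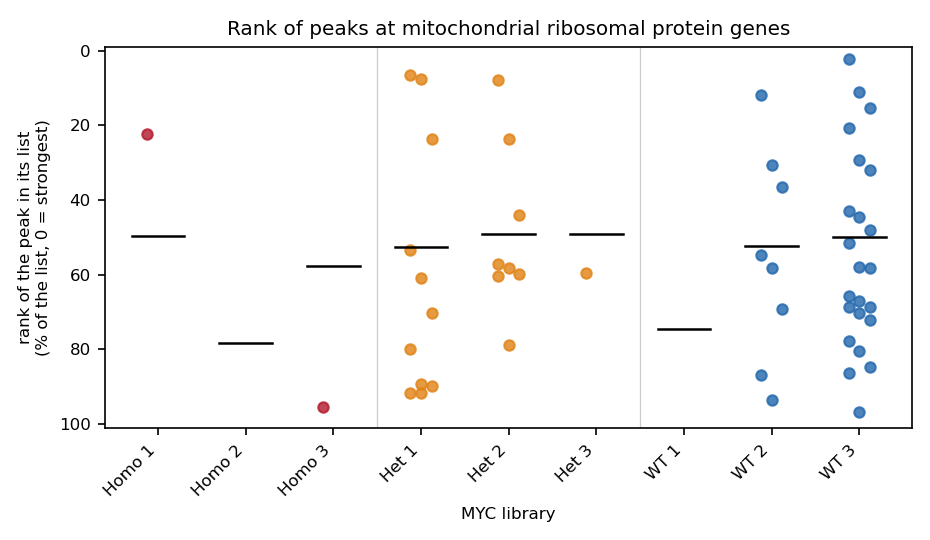
Rank of each peak at a mitochondrial ribosomal protein gene as a percentage of its list (vertical axis, 0 is the strongest peak) in the 9 MYC libraries; red is Homo, orange Het and blue WT, and black lines mark the median rank of all gene-end peaks. In Het replicates 1 and 2 and WT replicates 2 and 3 the median rank of the circles, 56.6% to 70.3%, is weaker than the black line.

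The summits lay near transcription starts, which the 1 kb limit around gene ends partly sets in advance. The same distances for all protein-coding genes are not given here. For 23 of the 27 bound genes a start and strand were at hand, and their 42 summits lay between -210 bp (upstream) and 457 bp (downstream) of the start, with a median of 66.5 bp. Within 250 bp of a start lay 32 of the 42. Farther downstream lay the summits of Mrpl23, Mrpl50 and Mrps24 (356 bp). Within a gene, the summits of different libraries lay 6 to 180 bp apart for the 12 genes with 2 or more peaks, the widest being Mrpl47.

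**Figure D5:**
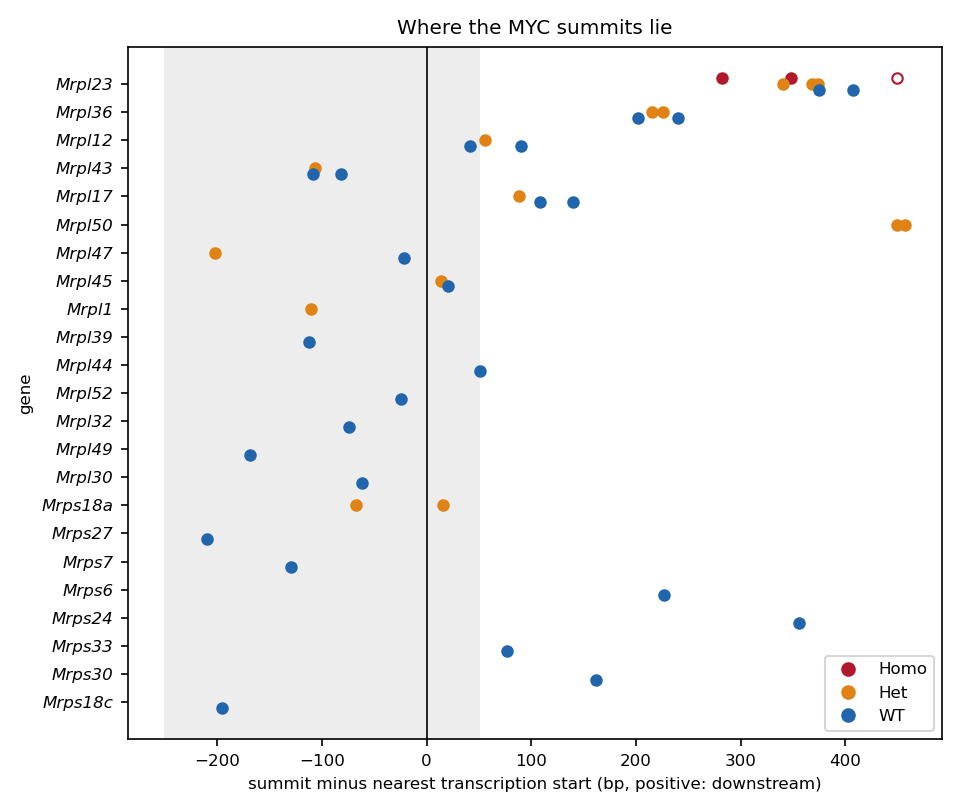
Distance of each MYC summit from the nearest transcription start of its gene (bp, positive is downstream) for 23 genes; red is Homo, orange Het and blue WT, the grey band is the stretch from 250 bp before to 50 bp after the start, and the open circle is the Mrpl23 peak of Homo replicate 2 at 449 bp. Summits of Mrpl23 and Mrpl36 lie downstream of the band in every library with a peak.

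Some of these peaks were shared with a neighbour, as were peaks of bound genes in general. Of the 27 bound genes 13 had a summit that also lay within 1 kb of an end of another protein-coding gene. The like share over all genes bound in at least 1 library is not given here. Of the 12 bound in at least 2 libraries 5 shared a summit (41.7%), against 562 of 1757 (32.0%) for all protein-coding genes bound in at least 2. This difference was not tested. These 5 pairs were Mrpl54 with Apba3, Mrpl12 with Hgs (of endosomal sorting), Mrpl43 with Twnk, Mrpl50 with Zfp189, and Mrpl47 with Ndufb5, a complex I subunit gene. Among the genes bound in 1 library, Mrps27 shared its peak with Ptcd2 (mitochondrial RNA processing), Mrpl49 with Fau (a protein of the cytosolic small ribosomal subunit) and Mrpl32 with Psma2 (a proteasome subunit). Mrpl30 with Mitd1, Mrpl44 with Wdfy1, Mrps6 with Slc5a3, Mrps7 with Gga3 and Mrps18c with Helq make up the rest. In 5 peaks the neighbour's end was nearer than that of the mitochondrial ribosomal protein gene, among them Mrpl49 (Fau at 23 bp, Mrpl49 at 169 bp), Mrps27 (Ptcd2 at 102 bp, Mrps27 at 191 bp) and Mrpl47 in Het replicate 2 (Ndufb5 at 100 bp, Mrpl47 at 202 bp). This count uses span ends. By transcription start, all Mrpl43 summits were nearer to Twnk (7 to 34 bp upstream) than to Mrpl43 (82 to 109 bp upstream). The Mrps7 summit lay 94 bp upstream of a start of Gga3 and 130 bp upstream of its own. A shared peak cannot be assigned to either gene. With each summit given to the nearest end only, 11 genes (14.1%) were bound in at least 2 libraries, against 6.83% of all protein-coding genes. Of the 11, 9 were of the large and 2 of the small subunit. Mrpl43 still counted in 3 libraries, because its own span end was nearer than that of Twnk.

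Promoter sequences of RefSeq (GRCm38.p6, from 250 bases before to 50 bases after a start) were matched by gene ID for 69 of the 78 genes. They are shown for Mrpl23, the gene with the most peaks, and for Mrpl36. Mrpl36 was bound in 4 libraries, as were Mrpl54 and Mrpl15, but unlike them has a window. Also shown are Mrps18a and Mrps27, named for the small subunit, and Mrpl43, whose window also holds a start of Twnk. Mrpl12 and Mrpl45 were added after the values were seen because a motif lies near their summits. Capitals mark the E-box CACGTG and the related motif CACGCG, on either strand (CGCGTG on the other), and matches may overlap. The windows are chr7:142532782-142533081 and chr13:73330759-73331058 (both plus strand), chr11:120484387-120484686 (plus), chr19:45006393-45006692 (minus), chr11:97315466-97315765 (plus), chr17:46110754-46111053 (plus) and chr13:99344536-99344835 (plus), each written 5′ to 3′.
Mrpl23: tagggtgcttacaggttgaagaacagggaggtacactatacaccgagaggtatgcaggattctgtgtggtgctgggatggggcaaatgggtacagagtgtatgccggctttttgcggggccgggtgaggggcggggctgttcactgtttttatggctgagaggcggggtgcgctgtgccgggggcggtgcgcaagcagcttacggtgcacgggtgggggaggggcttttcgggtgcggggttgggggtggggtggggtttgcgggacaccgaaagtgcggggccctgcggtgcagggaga
Mrpl36: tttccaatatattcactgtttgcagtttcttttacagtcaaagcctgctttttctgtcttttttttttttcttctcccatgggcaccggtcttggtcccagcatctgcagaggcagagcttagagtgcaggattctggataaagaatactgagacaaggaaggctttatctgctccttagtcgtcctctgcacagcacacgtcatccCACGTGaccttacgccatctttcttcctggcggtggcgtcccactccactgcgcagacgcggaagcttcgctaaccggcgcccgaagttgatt
Mrpl12: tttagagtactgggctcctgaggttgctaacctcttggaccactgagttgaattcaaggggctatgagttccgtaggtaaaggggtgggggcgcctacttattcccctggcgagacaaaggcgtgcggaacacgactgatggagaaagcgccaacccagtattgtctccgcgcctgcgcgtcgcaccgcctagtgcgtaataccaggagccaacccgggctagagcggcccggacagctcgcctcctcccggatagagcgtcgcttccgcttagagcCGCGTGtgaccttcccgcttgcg
Mrpl43: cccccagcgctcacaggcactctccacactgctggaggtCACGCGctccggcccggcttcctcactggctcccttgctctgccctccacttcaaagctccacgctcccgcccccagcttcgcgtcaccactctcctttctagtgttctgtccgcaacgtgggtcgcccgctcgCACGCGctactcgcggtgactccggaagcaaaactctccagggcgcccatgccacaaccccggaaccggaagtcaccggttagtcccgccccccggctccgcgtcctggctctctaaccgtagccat
Mrpl45: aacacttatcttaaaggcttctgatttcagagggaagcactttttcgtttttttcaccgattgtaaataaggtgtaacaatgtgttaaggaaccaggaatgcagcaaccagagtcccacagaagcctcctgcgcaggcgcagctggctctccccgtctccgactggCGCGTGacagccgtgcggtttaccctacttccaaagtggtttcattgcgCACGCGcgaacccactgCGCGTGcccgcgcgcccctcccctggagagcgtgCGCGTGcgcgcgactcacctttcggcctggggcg
Mrps18a: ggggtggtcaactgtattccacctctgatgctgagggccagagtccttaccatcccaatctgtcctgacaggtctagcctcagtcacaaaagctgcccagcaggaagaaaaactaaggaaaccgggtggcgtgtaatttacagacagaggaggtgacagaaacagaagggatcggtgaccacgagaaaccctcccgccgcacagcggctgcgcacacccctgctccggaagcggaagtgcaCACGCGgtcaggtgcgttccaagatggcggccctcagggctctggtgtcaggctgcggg
Mrps27: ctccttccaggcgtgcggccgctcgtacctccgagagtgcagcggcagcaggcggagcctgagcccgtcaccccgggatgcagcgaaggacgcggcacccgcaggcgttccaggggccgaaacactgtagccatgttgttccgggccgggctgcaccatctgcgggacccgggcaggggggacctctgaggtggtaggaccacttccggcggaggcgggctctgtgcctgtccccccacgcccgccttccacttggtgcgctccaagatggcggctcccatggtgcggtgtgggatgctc

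Mrpl36 carried the only CACGTG among the windows of genes bound in at least 2 libraries, starting 43 bases before the start and 242.5 to 280.5 bp from the summits. Mrpl23 and Mrps27 carried neither motif in this window, and the summits of Mrpl23 lay downstream of it. In Mrpl12 a match to the CACGCG motif began 27 bases after the start, 11.5 to 60.5 bp from the summits. In Mrpl43 a pair of matches to it began 211 and 77 bases before the start, and the nearest lay 7.5 to 34.5 bp from the summits. Mrpl45 held 4 matches, the nearest 1.5 to 4.5 bp from its summits, and Mrps18a held 1, at 22.5 to 60.5 bp. Mrpl17, not shown, held 2 matches, the nearest farther away, at 112.5 to 164.5 bp from its summits. Mrpl47 and Mrpl50, also not shown, carried neither motif. Counted by gene, with any of a gene's windows, CACGTG was found in 2 of the 23 bound genes with a window (8.70%) and in 3 of 46 genes without a peak (6.52%), where 8.91% of all protein-coding genes with a window and 7.12% of those without a peak held it. Among genes bound in at least 2 libraries it was found in 1 of 9 of the group (11.1%), against 21.3% of all protein-coding genes bound in at least 2. CACGCG or CGCGTG was found in 9 of the 23 bound genes (39.1%) and in 4 of the 46 without a peak (8.70%), where 13.7% of all protein-coding genes and 10.3% of those without a peak held it. Among genes bound in at least 2 libraries it was found in 5 of 9 of the group (55.6%), against 34.5% of all protein-coding genes bound in at least 2. For both motifs the share over all protein-coding genes bound in at least 1 library is not given here. The shares of the 23 bound genes thus have no like share beside them. A match is a description of these letters, not a binding site.

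Fewer of these genes were bound in Homo than in WT tumours on average, as were fewer of all genes, and the libraries of the genotypes overlapped. The number of bound genes averaged 0.667 ± 0.577 in Homo and 10.3 ± 11.7 in WT (SD, n = 3 each), a difference of -9.67, while all bound protein-coding genes averaged 94.7 ± 96.7 in Homo and 1390 ± 1563 in WT. The difference was smaller than the SD of the WT libraries. It was -3.33 without WT replicate 3 and -14.8 without WT replicate 1. With thinning and the −log10 p limit of 10 it was -2, against -7.67 with that limit alone. With each list cut to its 51 strongest peaks it turned to 0.333. In any library, 1 gene of the group was bound in Homo and 24 in WT, 8 without WT replicate 3. Peaks in at least 2 libraries of WT but in none of Homo were found at 6 of the 78 genes (7.69%), Mrpl12, Mrpl15, Mrpl17, Mrpl36, Mrpl43 and Mrpl54, where 3.70% of all protein-coding genes showed this pattern. In the opposite direction were 0 of the 78 and 0 of all genes. The 6 became 0 without WT replicate 2 or WT replicate 3. The members made up 1.41%, 0% and 0.498% of all bound genes in Homo, 0.901%, 0.596% and 0.535% in Het and 0%, 0.753% and 0.744% in WT, so their place among the bound genes overlapped between genotypes.

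Between Homo and Het tumours the mean difference was -6, with 0.667 ± 0.577 bound genes in Homo and 6.67 ± 5.13 in Het (SD, n = 3 each). All bound protein-coding genes averaged 94.7 ± 96.7 in Homo and 917 ± 635 in Het. The difference was -3.83 without Het replicate 1. With Het replicate 3 left out it was -8.83. Thinning and the −log10 p limit gave -3.33, the limit alone -4.67, and lists of equal length turned it to 0.333. Mrpl15, Mrpl36, Mrpl50, Mrpl54 and Mrps18a (5 of 78, 6.41%) had peaks in at least 2 libraries of Het but in none of Homo, where 3.04% of all protein-coding genes did, and 0 of the 78 did in the opposite direction. The 5 became 0 when either Het replicate 1 or 2 was left out. Het replicate 3, with 1 bound gene, could not be told from the Homo libraries by this count.

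Between Het and WT tumours the libraries overlapped. The mean difference of -3.67 (6.67 ± 5.13 in Het and 10.3 ± 11.7 in WT, SD, n = 3 each) was smaller than the spread between libraries and turned to 2.67 without WT replicate 3. With WT replicate 1 left out it was -8.83. Leaving out a Het library gave -5.83 for replicate 1 and -0.833 for replicate 3. With thinning and the −log10 p limit of 10 it was 1.33, against -3 with that limit alone. In at least 2 libraries of both genotypes 4 genes were bound, Mrpl23, Mrpl36, Mrpl54 and Mrpl15 (5.13%, against 2.94% of all protein-coding genes). Mrpl50 and Mrps18a (2 of 78, 2.56%) had peaks in at least 2 libraries of Het but in none of WT, where 0.0868% of all protein-coding genes (19) did, and the count became 0 when either Het replicate 1 or 2 was left out. Without WT replicate 3 the count was still 2, and 227 of all genes met it. Peaks in at least 2 libraries of WT but in none of Het were found at 0 of the 78, where 0.649% of all genes had them, and at 3 without Het replicate 1.

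No gene passed a test for a difference between genotypes. The exact permutation test over the 3 genotypes was run on bound or not bound for the 3264 protein-coding genes with a peak in at least 1 library. With Benjamini-Hochberg adjustment it called 0 of them (0%), and 0 had an unadjusted p under 0.05 (lowest exact p = 0.143). Among the 27 bound mitochondrial ribosomal protein genes the lowest value was exact p = 0.25 (adjusted p = 1), for Mrpl50 and Mrps18a, followed by 0.357 for Mrpl36, Mrpl54 and Mrpl15. This test could not have called a gene after adjustment unless at least 2332 of the 3264 genes had reached the smallest p it can give, 0.0357, so the 0 calls say nothing about stability. For a pair of genotypes, 3 against 3 libraries cannot give an exact p below 0.1, so no single gene could pass there.

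Other genes of mitochondrial translation were bound too. A list of 43 translation factors, assembly factors, rRNA-modifying enzymes and ribosomal proteins with other names matched 42 genes, of which 15 had a peak in at least 1 library and 10 in at least 2 (23.8%), against 15.4% of the mitochondrial ribosomal protein genes, with 0 in any Homo library. The difference between these shares was not tested. Mrm1, an rRNA methyltransferase, had peaks in 3 Het and 2 WT libraries (folds 4.95, 9.53 and 7.35 in Het and 6.78 and 5.51 in WT). Mtg1, an assembly GTPase, had peaks in 2 Het and 2 WT libraries (5.46 and 9.21 in Het, 6.87 and 13.8 in WT). Guf1, a translation factor, and Tsfm, an elongation factor, followed with 1 Het and 2 WT libraries each. Bound in 2 libraries were Chchd1, a small subunit protein, Dhx30, Fastkd2, Gtpbp10, Mtfmt and Noa1. Of 96 respiratory chain genes 8 (8.33%) were bound in at least 2 libraries, close to the 8.03% of all protein-coding genes. Of 93 cytosolic ribosomal protein genes 53 (57.0%) were bound in at least 2 libraries and 10 in any Homo library, and their share was above that of the mitochondrial ribosomal protein genes in all 7 libraries where either had a bound gene (for example 65.6% and 29.5% in WT replicate 3).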

How the data were processed

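MYC occupancy was measured in 9 MYC libraries, 3 per genotype. No file of the 9 input samples was used. Per the submitters' processing notes, MACS2 2.0.10.20131216, HOMER, Picard and Bowtie2 2.2.3 were used with mm10. The caller's threshold (not given in the sources used here) was taken as unknown. Each list gives the authors' fold (ratio over background at the summit), the deposited −log10 p and −log10 q and a deposited integer score, which was not used. Gene spans and promoter sequences came from RefSeq (GRCm38.p6), the assembly behind mm10.

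Fold and −log10 p were solved together for whole MYC reads at the summit and local background, taking the fold as the ratio of scaled reads plus 1 to background plus 1 and p as a Poisson upper tail. Exactly 1 solution was found for 99.8% of 10376 peaks, and the others were left out of what uses reads. Depth in input reads per kb came from the lowest background of a list divided by its shortest peak. For thinning, reads and background were multiplied by the lowest depth over the library's own. Scaled reads were then rounded down to a whole number, so a thinned −log10 p can come out slightly above the original. Intervals were not given, and reads cover counting error only.

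Python 3.11.15, numpy 2.4.6, pandas 2.3.3 and scipy 1.17.1 were used. The permutation test and the solution for reads were tested on simulated data. Groups and replicate numbers came from the titles. The genes named with values were those bound in at least 5 libraries, in any Homo library, or in at least 3 libraries with a contrast between genotypes, and the others are named with their number of libraries. The members and lists were chosen with earlier results of these data known, so no test was run over the group. Alternatives were stricter peak limits, other windows, transcription starts, peak overlap, nearest ends, lists of equal length, thinning, a block for the replicate number and each library left out. Leaving out both WT replicate 1 and Homo replicate 2 was an alternative chosen after seeing the data.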

Additional observations from a re-analysis of the deposited data

How the results depend on the processing

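The number of genes bound in at least 2 libraries, 12, ranged from 8 to 16 over the alternatives other than equal list lengths and thinning, and from 8 to 12 with single libraries left out. It was 8 with a −log10 p of at least 10 and within 250 bp (6 large and 2 small subunit), 16 within 5 kb, and 12 without WT replicate 1 and Homo replicate 2 together. Thinned to the shallowest input with a −log10 p of at least 10 it was 4 (5.13%, 3 large and 1 small), against 3.83% of all genes. With each list cut to its 51 strongest peaks it was 0 for each subunit and for shared peaks, and the mean differences of Homo from WT and from Het became 0.333, since a single gene, Mrpl23 in Homo replicate 1, was left. The large subunit count ranged from 8 to 10 and the small subunit count from 0 to 2 with single libraries left out. The small subunit count was 1 with a −log10 q of at least 5, a fold of at least 5, a −log10 p of at least 10 or transcription starts only, and 4 within 5 kb. The 5 genes that share a peak became 2 within 250 bp, 10 within 5 kb, 1 with thinning and that limit, and 3 to 5 with single libraries left out. With single libraries left out, the mean differences ranged from -14.8 to -3.33 (Homo minus WT), -8.83 to 2.67 (Het minus WT) and -8.83 to -3.83 (Homo minus Het). The test over genotypes called 0 genes in each alternative, where the design leaves little room for a call. Same-numbered libraries correlated between -0.276 and 0.318 in their deviations from the genotype means. Differently numbered ones correlated between -0.386 and 0.305. With so few libraries these values cannot settle whether the numbers pair the samples. With the replicate number as a block the test called 0 genes (0 at an unadjusted p under 0.05), and the mean differences, equal by construction, were -9.67, -3.67 and -6. The part of input depth in the counts was not tested. Homo replicate 1 held 112 peaks at an input of 3.69 reads per kb, Het replicate 2 held 1869 at 3.63, and WT replicate 1 held 92 at 4.04.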
